A study of Danio rerio with 32 samples.

Results

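Oxidative phosphorylation in these zebrafish eyes and brains was followed through 107 genes of the 32520 in the table, 13 carried by mitochondrial DNA and 94 by the nucleus. Members were the protein coding genes whose names start with mt- or with a subunit prefix of complexes I to V (ndufa, ndufb, ndufc, ndufs, ndufv, sdha to sdhd, uqcr, cox4 to cox8 and atp5). This rule left out 3 protein coding genes with subunit names written in capitals. The nuclear members divide into 40 of complex I, 9 of complex II, 8 of complex III, 18 of complex IV and 19 of complex V. The mitochondrial members divide into 7 of complex I, 1 of complex III, 3 of complex IV and 2 of complex V, and complex II has none. The complex II count takes in 4 assembly factors (sdhaf genes), because their names share the sdha prefix, and the ndufa4 genes are counted with complex I by name although their mammalian counterpart is also known as a subunit of complex IV.

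Wild-type embryos were kept from 0.75 to 120 h post-fertilisation in 0.1% DMSO, either alone or with 12.5 µM PFNA (perfluorononanoic acid), and eyes and brains were then dissected for RNA sequencing. The light regime was either 14 h light and 10 h dark each day (LD) or 24 h dark (DD). The 8 groups are therefore eye or brain, LD or DD, and DMSO or PFNA, with 4 libraries each, and every group carried the same DMSO vehicle. Nothing in the labels ties the libraries of a group to distinct clutches, and each p-value therefore measures no more than the spread between these libraries. In whole dissected tissue, fewer cells of a type and less RNA per cell cannot be told apart.

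The respiratory chain passes electrons from NADH (complex I) and succinate (complex II) through coenzyme Q, complex III and cytochrome c to oxygen at complex IV, and the proton gradient built on the way drives ATP synthesis at complex V. Complexes I, III, IV and V are assembled from subunits of both genomes, whereas complex II is nuclear throughout. Photoreceptors and neurons are known for a high demand for ATP from this pathway. Mitochondrial messages come from long polycistronic transcripts that are cut into shorter messages, so their levels are set apart from nuclear promoters.

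Library totals ran from 8.83 M to 16.13 M fragments with a median of 11.44 M. Brain DD PFNA replicate 3 had photoreceptor markers summing to 9743.37 FPKM and lens markers summing to 15264.21 FPKM, against no more than 48.66 and 6.43 FPKM in the other brain libraries, and it was left out of every brain group. Eye DD PFNA replicate 4 had mitochondrial messages summing to 33944 FPKM and nuclear members summing to 6414.9 FPKM, against ranges of 12724.7 to 22865.8 and 2815.6 to 4207.0 FPKM in the 30 libraries besides these. Many eye results for members are given with and without it, and eye results for the other gene lists with it only.

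The highest levels were those of messages from mitochondrial DNA, though not every mt- gene stood above the nuclear members. FPKM scales fragment counts by gene length and a divisor for the library, so levels can be set side by side across genes only roughly. In LD DMSO eyes the short mt-atp8 (165 bases, MT 8894 to 9058) was at 76.1 ± 14.4 FPKM. That was far below mt-atp6 (MT 9052 to 9735), which it overlaps. How far gene length or the overlap affects such levels was not tested. Here the divisor ran from 0.8993 (eye DD PFNA replicate 4) to 1.1597 (brain LD DMSO replicate 3) times the library total. In LD DMSO eyes mt-co1, the catalytic subunit of complex IV, stood at 3430 ± 148 FPKM (SD, n = 4), followed by mt-co3 at 2746 ± 81.8 FPKM and mt-atp6, the proton channel subunit of complex V, at 2264 ± 141 FPKM. The sole complex III message, mt-cyb, was at 970 ± 55.4 FPKM, and the complex I messages mt-nd4 and mt-nd5 were lower still, with mt-nd4 at 463 ± 20.4 FPKM and mt-nd5 at 361 ± 9.46 FPKM. Among nuclear members the highest in LD DMSO eyes were the catalytic core of complex V, atp5f1b (beta subunit) at 448 ± 56.8 FPKM and atp5fa1 (alpha subunit) at 340 ± 42.4 FPKM. In LD DMSO brains mt-co1 was at 3459 ± 476 FPKM, atp5f1b at 347 ± 42.4 FPKM and atp5fa1 at 300 ± 27.8 FPKM. The mt-nd6 level, 1652 ± 61.5 FPKM in LD DMSO eyes, is uncertain because the gene lies on the other strand of the MT chromosome (14714 to 15232, minus) from its neighbours and the strandedness of the counting is not given in the sources used here. In the 4 LD DMSO brain libraries mt-nd6 ran from 587 to 2497 FPKM, a spread of 1448 ± 822 FPKM. At the low end, 7 nuclear members stayed under 1 FPKM in every library, and 3 of these, ndufa12, ndufb5 and ndufs4, were listed at 0 throughout. The core complex I gene ndufs1 reached no more than 0.17 FPKM. Whether these low values reflect little RNA or reads not assigned to the genes was not tested.

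In constant dark the mitochondrial sum was higher relative to the nuclear sum in brains. The ratio of summed mt- FPKM to summed nuclear FPKM was 3.60, 4.65, 3.77 and 3.84 in the 4 LD DMSO brain libraries and 8.12, 6.43, 5.14 and 7.07 in the 4 DD DMSO brain libraries. With PFNA it was 3.72, 3.12, 3.62 and 3.21 in LD brains and 5.96, 5.64 and 5.40 in the 3 DD brain libraries used. All 7 dark brain libraries thus lay above all 8 brain libraries from the light cycle, whose highest ratio was 4.65. Both sums contributed: the nuclear sum was 2815.6 to 3341.8 FPKM in dark brains and 3382.8 to 4074.8 FPKM in light-cycle brains, and the mitochondrial sum was 17144 to 22866 FPKM against 12725 to 15746 FPKM.

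In eyes the ratio separated the photoperiods in DMSO and less clearly in PFNA. It was 4.15, 3.80, 4.03 and 4.09 in LD DMSO eyes and 5.06, 4.78, 5.43 and 5.25 in DD DMSO eyes, with no overlap. In PFNA eyes it was 4.23, 3.74, 4.11 and 3.96 under LD and 3.93, 4.47, 4.4 and 5.29 under DD, the last being replicate 4. The first DD PFNA library lay inside the LD PFNA range, so those groups overlapped with replicate 4 (4.52 ± 0.57, n = 4) and without it (4.27 ± 0.30, n = 3). The ratio is given as a description of each library and carries no test.

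**Figure D1:**
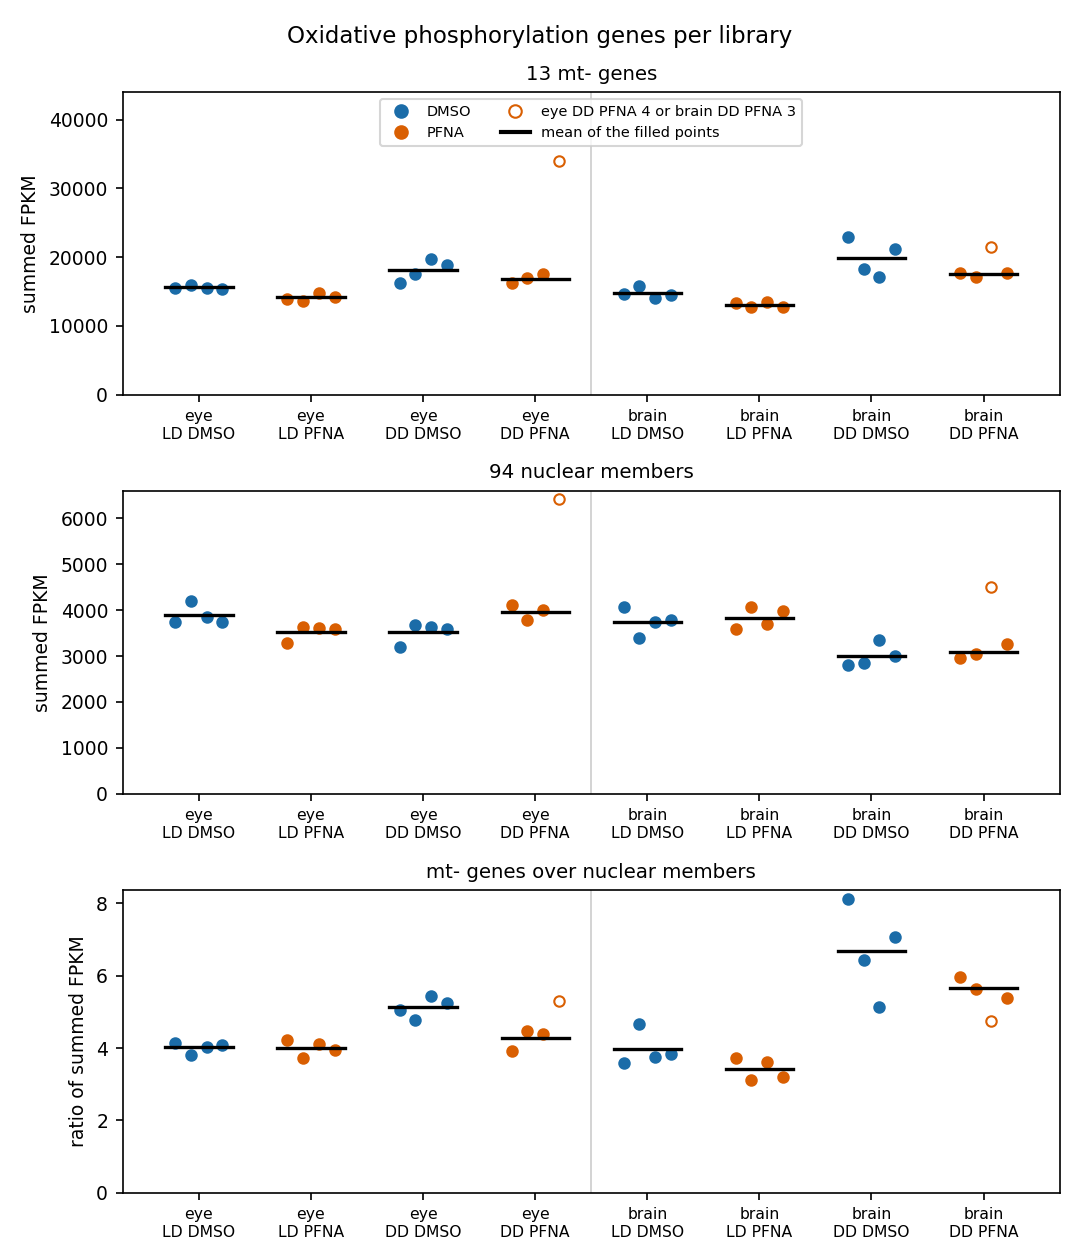
Summed FPKM of the 13 mt- genes (top), summed FPKM of the 94 nuclear members (middle) and their ratio (bottom) in each library, by group; bars are means of the filled points and open circles are eye DD PFNA replicate 4 and brain DD PFNA replicate 3. The ratios of the 7 dark brain libraries, 5.14 to 8.12, all sit above those of the 8 light-cycle brain libraries, 3.12 to 4.65.

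Dark DMSO brains had lower nuclear messages for complexes IV and V and higher mt-cyb, mt-atp6 and mt-co2. With limma across all genes, 20 of 82 nuclear members tested were lower and 3 were higher in DD than in LD DMSO brains, and 3 of 13 mt- genes were higher. Over all 17216 genes tested, 16.1% were called in this comparison, 9.68% lower and 6.39% higher. The lower members comprised 9 of 19 tested for complex V, 6 of 14 for complex IV, 3 of 33 for complex I and 2 of 8 for complex III. The higher nuclear members were 2 of complex II and 1 of complex V. The latter was atp5if1b, which averaged 4.78 FPKM in LD and 9.29 FPKM in DD DMSO brains. The median log2 difference was -0.19 for nuclear members and 0.11 for mt- genes, beside 0.00 (-5e-04) for all genes.

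Complex V carried the smallest p. For atp5mc1, one of the genes for subunit c of the rotor ring, the LD DMSO brains had 139.14, 134.82, 143.84 and 151.64 FPKM and the DD DMSO brains 78.25, 78.07, 91.62 and 73.37 FPKM. Every dark library lay far below every light-cycle library, and the difference was -0.82 on the log2(FPKM + 1) scale (SE 0.0945, adjusted p = 0.0001535, limma). The catalytic subunits fell as well, atp5fa1 by 0.56 (SE 0.1005, adjusted p = 0.002115) and atp5f1b by 0.41 (SE 0.1065, adjusted p = 0.0182). For atp5f1b the groups came close, with 287.29 FPKM in the lowest LD library and 290.8 FPKM in the highest DD library.

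Complex IV showed the same direction in its nuclear subunits. The gene cox5ab, one of a pair of paralogues for subunit 5A, had 54.69, 38.66, 56.62 and 45.08 FPKM in LD DMSO brains and 28.34, 23.75, 27.39 and 23.57 FPKM in DD DMSO brains. The groups did not overlap, and the difference was -0.88 (SE 0.132, adjusted p = 0.0007751, limma). Its paralogue cox5aa fell by 0.49 (adjusted p = 0.005135), the small membrane subunit gene cox8a by 0.46 (adjusted p = 0.01407) and cox6a1 by 0.90 (adjusted p = 0.04245). The cox5aa and cox5ab copies could share reads, so the split between them is uncertain.

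In complex III, uqcrc2a (core protein 2) had 26.6, 25.87, 26.64 and 27.58 FPKM in LD DMSO brains and 21.52, 18.2, 20.11 and 19.39 FPKM in DD DMSO brains. It is a small but separated difference of -0.41 (SE 0.071, adjusted p = 0.001693, limma). In complex I, ndufb11, an accessory subunit of the membrane arm, had 9.02, 4.29, 12.04 and 7.05 FPKM in LD DMSO brains and 1.19, 1.82, 3.1 and 2.01 FPKM in DD DMSO brains. At these low levels the pseudocount shrinks the difference, which was -1.55 (SE 0.251, adjusted p = 0.001178). Complex II went the other way for a pair of its membrane anchor genes. For sdhda the libraries had 0.38, 0.99, 0.64 and 0.66 FPKM in LD and 1.65, 2.43, 3.56 and 2.85 FPKM in DD DMSO brains, a rise of 1.102 (SE 0.189, adjusted p = 0.001694). All sdhda values were low. Its more abundant paralogue sdhdb, which could share reads with it, did not rise, averaging 29.7 FPKM in LD and 27.2 FPKM in DD DMSO brains. The other gene of the pair, sdhc, named after its values were seen, had 0.58, 0.0, 0.22 and 0.17 FPKM in LD and 4.56, 1.69, 8.64 and 0.3 FPKM in DD. These groups overlapped, and the rise of 1.59 (SE 0.468, adjusted p = 0.03236) was called in 3 of 8 fits that left out a library (highest adjusted p = 0.0885).

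Against this, mt-cyb (MT 15308 to 16448, plus strand, build not given in the sources used here) had 806.94, 771.75, 864.92 and 751.18 FPKM in LD DMSO brains and 1451.94, 1040.51, 1142.65 and 1564.86 FPKM in DD DMSO brains. The groups did not overlap, and mt-cyb rose by 0.68 (SE 0.130, adjusted p = 0.003163, limma). The subunit messages mt-atp6 and mt-co2 rose by 0.62 (adjusted p = 0.006363) and 0.58 (adjusted p = 0.01293). The mt- genes of complex I were not called: the 4 LD and 4 DD libraries averaged 666.32 and 663.1 FPKM for mt-nd1, 433.28 and 427.93 FPKM for mt-nd4l, and 326.57 and 350.06 FPKM for mt-nd5. They averaged 323.91 and 350.52 FPKM for mt-nd2, 494.5 and 535.5 FPKM for mt-nd4, and 1448 and 1869 FPKM for mt-nd6. For mt-nd3 the averages were 456.51 and 377 FPKM. Outside complex I, mt-co1 (3459 and 4688 FPKM) and mt-co3 (2595 and 3651 FPKM) averaged higher in DD and were not called either. When single libraries of these groups were left out in turn, atp5f1b was called in 5 of 8 fits (highest adjusted p = 0.0611) and cox6a1 in 2 of 8 (0.119). The called genes named for dark DMSO brains other than these, sdhc and atp5if1b were called in 8 of 8. For atp5if1b these fits are not given.

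The same contrast in PFNA brains shares no library with the DMSO one, although both were tested with 1 spread estimated over all 15 brain libraries. In PFNA brains 15 of 82 nuclear members were lower and 1 was higher in DD, and 2 of 13 mt- genes were higher. Over all genes 9.63% were called, 5.97% lower and 3.66% higher. The lower members included 6 of 19 for complex V and 5 of 14 for complex IV. The gene cox5ab had 39.24, 49.17, 42.6 and 46.86 FPKM in LD PFNA brains and 18.74, 22.36 and 26.81 FPKM in DD PFNA brains, with no overlap and a difference of -0.95 (SE 0.142, adjusted p = 0.001775, limma). Likewise atp5mc1 fell by 0.65 (adjusted p = 0.002228), atp5mc3b, another subunit c gene, by 0.61 (adjusted p = 0.003805), uqcrc2a by 0.47 (adjusted p = 0.002874) and cox5aa by 0.55 (adjusted p = 0.007109). Again sdhda rose, by 1.32 (adjusted p = 0.002093), while sdhdb averaged 25.6 FPKM in LD and 20.9 FPKM in DD PFNA brains without a call. For mt-atp6, the values were 1418.33, 1338.98, 1191.92 and 1381.62 FPKM in LD PFNA brains and 2117.56, 1905.95 and 2118.81 FPKM in DD PFNA brains, a rise of 0.62 (SE 0.145, adjusted p = 0.01585) without overlap. In all, 10 of 13 mt- genes had every DD PFNA library above every LD PFNA library, and 32 of 82 nuclear members had every DD library below, where 14.3% and 16.3% of all genes did so. When single libraries were left out in turn, mt-cyb was called in 2 of 7 fits (highest adjusted p = 0.0866) and mt-atp6 in 5 of 7 (0.065), and the called nuclear genes named for PFNA brains in 7 of 7.

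These counts depend on the scale chosen. Under median-ratio scaling 326 values of single genes, over all comparisons, stayed on their side of the adjusted p threshold. There 1 value lost it and 1 gained it. Calls moved more when libraries were rescaled to the same summed FPKM over genes without the mt- prefix. That rescaling moved the median of all genes by 0.19 in the DMSO contrast and 0.15 in the PFNA contrast. All genes called went from 39.8% higher to 84.0% higher (DMSO) and from 630 of 1658 higher to 82.4% higher (PFNA). Lower nuclear calls then went from 20 to 5 and from 15 to 3, and higher mt- calls from 3 to 5 and from 2 to 6. Higher nuclear calls went from 3 to 7 in DMSO and stayed at 1 in PFNA. Over all genes the rescaled calls were 3100 higher and 591 lower in DMSO, and 1785 and 381 in PFNA. Relative to the median of all genes the nuclear median was -0.19 as deposited and -0.16 rescaled in DMSO, and -0.27 and -0.25 in PFNA, although the DMSO nuclear median taken alone went from -0.19 to 0.02. Under the rescaling atp5mc1 and cox5ab were still lower in dark DMSO brains, at -0.59 (adjusted p = 0.003049) and -0.66 (adjusted p = 0.01772), and the calls for cox5aa, ndufb11, sdhda and the 3 mt- genes held as well. The calls for atp5fa1 (-0.34, adjusted p = 0.05189), atp5f1b (-0.18, 0.2048), cox8a (-0.24, 0.3122), cox6a1 (-0.67, 0.1644) and uqcrc2a (-0.19, 0.2026) were lost. In PFNA brains those for uqcrc2a (adjusted p = 0.102) and atp5mc3b (0.08124) were lost, and those for cox5ab, cox5aa, atp5mc1, sdhda, mt-atp6 and mt-cyb held.

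Other tissue moved with the DMSO contrast in brains. The exocrine pancreas and gut markers, 19 genes with ctrb1 at 0 in every group, summed to 17.4 to 42.4 FPKM in LD DMSO and 70.8 to 525.6 FPKM in DD DMSO brains, and 11 of 11 tested were higher. Retinal pigment epithelium markers summed to 14.1 to 43.4 FPKM and 6.2 to 9.8 FPKM, with 5 of 7 tested lower. Their part in the result was not tested. In the PFNA contrast the pancreas and gut sums overlapped, 13.4 to 39.4 FPKM in LD and 18.0 to 36.0 FPKM in DD, and 0 of 11 were called there by limma.

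**Figure D2:**
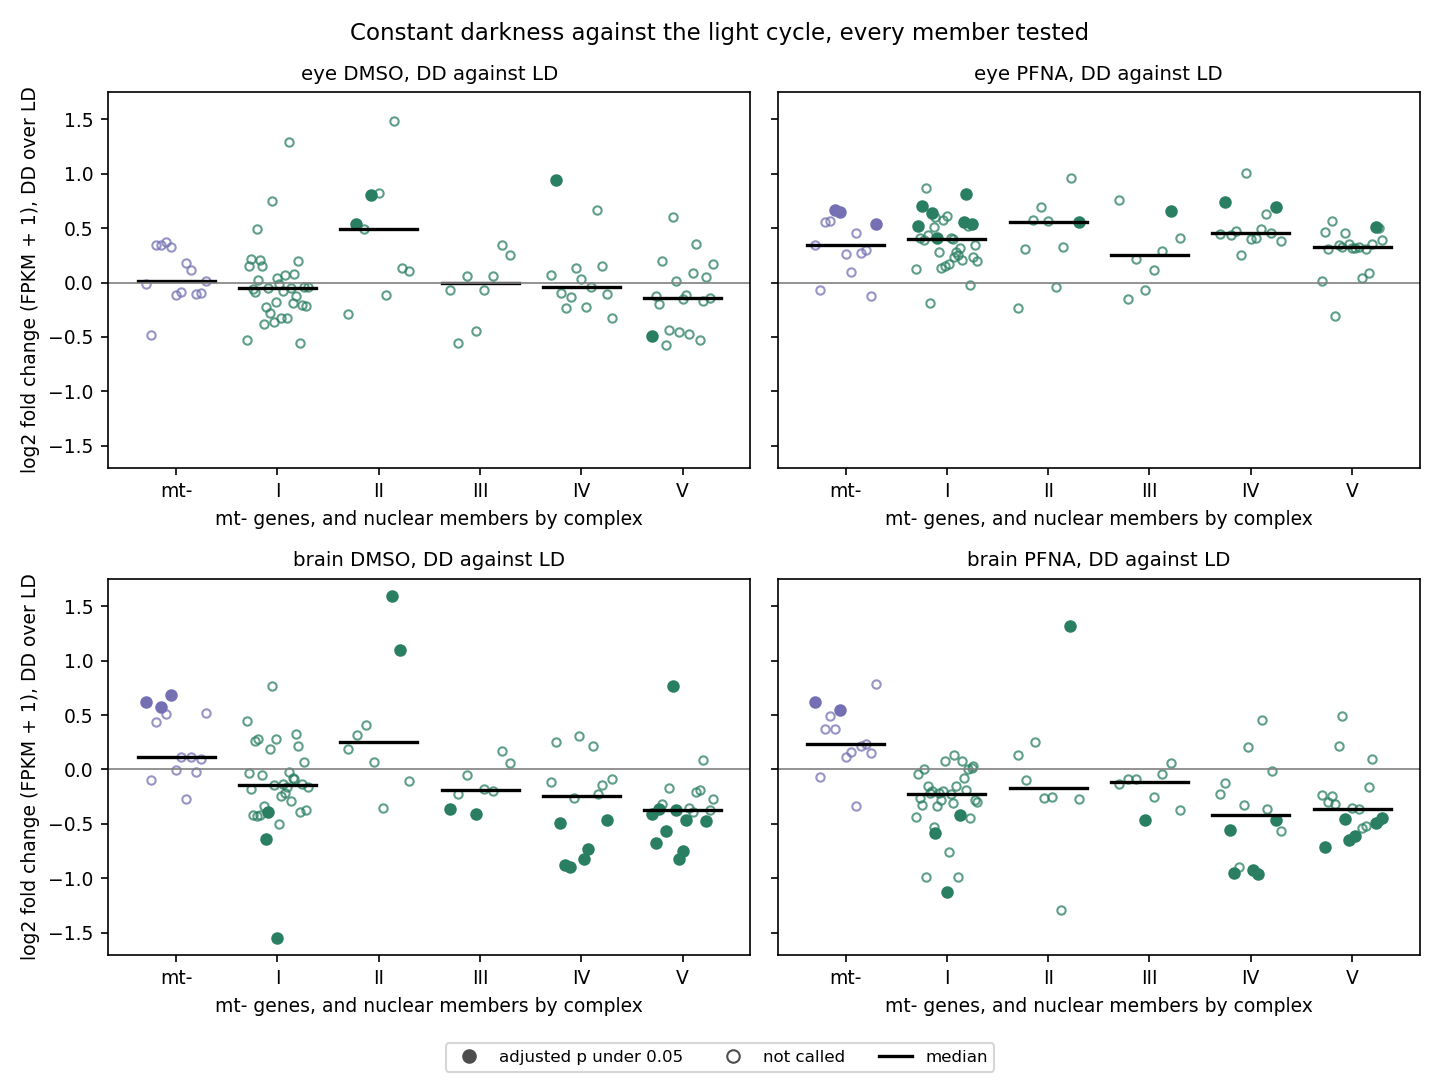
Difference between DD and LD of every member tested, on the log2(FPKM + 1) scale, in DMSO and PFNA eyes and brains; mt- genes and nuclear members are shown by complex, filled points passed an adjusted p of 0.05 and bars are medians. In both brain panels the nuclear complex IV and V points lie mostly below 0 while the mt- median is above it (0.11 in DMSO, 0.24 in PFNA); the eye panels include eye DD PFNA replicate 4.

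In DMSO eyes few members were called for constant dark with all eye libraries fitted, and more without eye DD PFNA replicate 4. With all 16 eye libraries fitted, 0 of 13 mt- genes were called, 3 of 82 nuclear members were higher and 1 was lower, beside 12.6% of all genes. At an unadjusted p under 0.05 limma gave 1 mt- gene, and voom weights on recovered fragments called 0. The largest of the called changes was in cox4i2, the alternative form of regulatory subunit 4 of complex IV (chromosome 23, 18944388 to 18951148, plus strand). It had 53.88, 51.05, 44.88 and 54.3 FPKM in LD DMSO eyes and 85.64, 108.65, 112.88 and 90.53 FPKM in DD DMSO eyes, without overlap, a rise of 0.94 (SE 0.165, adjusted p = 0.002417). The complex II assembly factors sdhaf1 and sdhaf3 rose by 0.54 (adjusted p = 0.03389) and 0.80 (adjusted p = 0.04679), and atp5f1b fell by 0.50 (adjusted p = 0.02861). With single libraries left out in turn, cox4i2 was called in 9 of 9 fits, sdhaf1 and atp5f1b in 3 of 9 (highest adjusted p = 0.0933 and 0.0829) and sdhaf3 in 2 of 9 (0.135).

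Without eye DD PFNA replicate 4, which belongs to neither group here but enters the shared spread, the same contrast called 4 mt- genes higher, 5 nuclear members higher and 8 lower, beside 22.1% of all genes. The 4 mt- genes were mt-co3, up by 0.37 (adjusted p = 0.007489), mt-co1 by 0.35 (adjusted p = 0.01426), mt-co2 by 0.34 (adjusted p = 0.01823) and mt-cyb by 0.32 (adjusted p = 0.02032). For mt-co3 the LD DMSO eyes had 2777.53, 2847.54, 2677.72 and 2682.07 FPKM and the DD DMSO eyes 3243.15, 3574.15, 3973.6 and 3488.5 FPKM, so the groups were apart. Lower members in this fit included atp5fa1, which went from 277.4, 363.17, 367.67 and 352.63 FPKM to 214.43, 245.66, 228.03 and 218.27 FPKM, a fall of 0.58 (SE 0.108, adjusted p = 0.002032). Under the rescaling to non-mt- genes the median of all genes moved from 0.03 to 0.10, calls over all genes from 49.5% to 74.4% higher, and the nuclear median from -0.05 to 0.04. Pancreas and gut markers summed to 26.6 to 131.0 FPKM in LD and 86.8 to 421.3 FPKM in DD DMSO eyes, with 11 of 15 tested higher, and 5 of 19 photoreceptor markers tested were lower and 2 higher. Their part was not tested.

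In PFNA eyes the members called with constant dark were all higher. With all libraries 3 of 13 mt- genes and 12 of 82 nuclear members were higher, 7 of the nuclear ones among the 33 tested of complex I, and 0 were lower, beside 16.1% of all genes (7.04% higher, 9.05% lower). At an unadjusted p under 0.05 limma gave 0 lower members, and voom weights called 0 lower. Fitting only the groups compared called 0 of the 15. The genes included ndufs3 and ndufs8a, core subunits of the peripheral arm, the accessory subunits ndufs5 and ndufa10, and the complex II anchor sdhdb. For ndufs5 the LD PFNA eyes had 23.63, 28.91, 25.96 and 27.63 FPKM and the DD PFNA eyes 39.07, 40.38, 41.7 and, in replicate 4, 75.62 FPKM. All dark libraries were above the light-cycle ones, and the rise was 0.81 with replicate 4 (SE 0.176, adjusted p = 0.009643) and 0.59 without it (SE 0.114, adjusted p = 0.005871). The gene cox4i2 rose by 0.74 (adjusted p = 0.01107), or 0.55 without replicate 4 (adjusted p = 0.01172). With single libraries left out in turn, ndufs5, ndufs3 and cox4i2 were called in 8 of 8 fits, ndufa10 in 7, ndufs8a in 6 and sdhdb in 5 (highest adjusted p = 0.072).

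Among the mt- genes, mt-cyb had 822.45, 757.7, 921.02 and 808.79 FPKM in LD PFNA eyes and 1137.93, 1045.12, 1102.77 and 2123.13 FPKM in DD PFNA eyes. It rose by 0.65 (adjusted p = 0.03038) with replicate 4, which was far above the others, and by 0.41 without it (adjusted p = 0.01838). It was called in 5 of 8 fits that left out a library (highest adjusted p = 0.0784), against 4 of 8 for mt-co3 and 3 of 8 for mt-nd6. Without replicate 4, 4 mt- genes and 8 of 82 nuclear members were higher and 0 members lower. Of all 18044 genes tested in that fit, 810 were higher and 1172 lower. The nuclear median went from 0.39 to 0.21 and the mt- median from 0.35 to 0.12. Rescaled to non-mt- genes with all libraries, the median of all genes was -0.10 and calls over all genes went from 43.8% to 30.7% higher. Of the other tissues, 5 of 10 retinal pigment epithelium markers were lower and 4 of 15 pancreas and gut markers higher in this contrast, and their part was not tested.

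PFNA raised sdha of complex II in both tissues. The flavoprotein subunit gene sdha (chromosome 19, 7276060 to 7291733, minus strand), which oxidises succinate, was the member called in all 4 comparisons of PFNA with DMSO. In LD eyes it had 38.91, 47.8, 50.07 and 48.88 FPKM with DMSO and 64.07, 73.13, 74.1 and 73.72 FPKM with PFNA, and in DD eyes 41.03, 37.91, 36.93 and 34.82 FPKM with DMSO and 70.82, 71.19, 71.78 and 36.03 FPKM with PFNA. In LD brains it had 42.3, 32.11, 43.99 and 38.87 FPKM with DMSO and 64.33, 67.07, 60.43 and 69.83 FPKM with PFNA, and in DD brains 37.04, 38.25, 57.97 and 48.01 FPKM with DMSO and 74.14, 71.77 and 69.65 FPKM with PFNA. Every PFNA library lay above every DMSO library of its tissue and photoperiod except eye DD PFNA replicate 4, which sat among the DMSO values at 36.03 FPKM.

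The rise in sdha was 0.61 in LD eyes (SE 0.175, adjusted p = 0.03442), 0.66 in DD eyes (SE 0.175, adjusted p = 0.02275), 0.73 in LD brains (SE 0.129, adjusted p = 0.003135) and 0.68 in DD brains (SE 0.139, adjusted p = 0.00922). Without eye DD PFNA replicate 4 the DD eye value was 0.90 (SE 0.0884, adjusted p = 1.243e-05). The LD and DD comparisons in a tissue share no library, although they share the spread estimated in the fit of that tissue. Scaled to non-mt- genes, the eye calls for sdha were lost (adjusted p = 0.1252 in LD, 0.2264 in DD), and both brain calls held. Fitting only the groups compared, the call in DD eyes was lost, and so was that in DD brains (adjusted p = 0.0628). With single libraries left out in turn, the sdha call was kept in 2 of 9 fits in LD eyes (highest adjusted p = 0.108) and 2 of 8 in DD eyes (0.07), with eye DD PFNA replicate 4 in the fit each time it was lost, and in every such fit in brains. The difference of the sdha rise between photoperiods (DD less LD) was 0.05 in eyes, with a 95% interval from -0.47 to 0.58. With replicate 4 in the fit a sizeable difference in either direction therefore remains possible. Without replicate 4 the difference was 0.29 (SE 0.1205, adjusted p = 0.329, limma), which was not called.

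The iron-sulfur subunit sdhb followed in eyes. It had 14.09, 18.0, 18.37 and 18.63 FPKM in LD DMSO eyes and 20.7, 24.77, 24.51 and 25.14 FPKM in LD PFNA eyes, and 14.55, 16.85, 16.49 and 15.13 FPKM against 23.98, 22.84, 22.97 and 22.12 FPKM in DD eyes. Neither pair of groups overlapped, and sdhb rose by 0.44 (SE 0.1005, adjusted p = 0.009153) and 0.52 (SE 0.1005, adjusted p = 0.003402). Scaled to non-mt- genes, the LD call for sdhb held and the DD value was 0.31 (adjusted p = 0.1311). Unlike sdha, sdhb in eye DD PFNA replicate 4 (22.12 FPKM) lay with the other PFNA libraries. In brains sdhb did not pass: the difference was 0.36 in LD (95% interval -0.03 to 0.74, adjusted p = 0.2557) and 0.46 in DD (0.05 to 0.87, adjusted p = 0.1811).

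The assembly factor sdhaf1, known for placing the iron-sulfur clusters of that subunit, had 2.95, 2.08, 2.34 and 2.23 FPKM in LD DMSO eyes and 3.42, 4.56, 5.34 and 5.09 FPKM in LD PFNA eyes. It rose by 0.71 there (SE 0.155, adjusted p = 0.006988) and by 0.55 in LD brains (SE 0.120, adjusted p = 0.0123). It did not pass in the dark, with 0.49 in DD eyes (adjusted p = 0.0552) and 0.13 in DD brains (adjusted p = 0.6051). Its dark DMSO eyes, at 3.12 to 4.43 FPKM, were already above the light-cycle DMSO eyes.

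In complex I, ndufv1, the subunit that takes electrons from NADH (chromosome 19, 9212031 to 9228512, plus strand), had 44.89, 49.15, 53.57 and 45.68 FPKM in DD DMSO eyes and 68.6, 63.79, 84.89 and 70.45 FPKM in DD PFNA eyes. The groups were apart and the rise was 0.56 (SE 0.105, adjusted p = 0.002729), or 0.57 without replicate 4. It also rose in LD brains, from 37.37, 33.15, 37.36 and 40.68 FPKM to 41.28, 49.9, 49.09 and 48.4 FPKM, by 0.34 (SE 0.0897, adjusted p = 0.03355). In LD eyes and DD brains the differences were 0.28 (adjusted p = 0.1118) and 0.30 (adjusted p = 0.08222). The DD eye call was kept in 8 of 8 fits that left out a library, the LD brain call in 2 of 8 (highest adjusted p = 0.0965). Scaled to non-mt- genes, neither ndufv1 call held, with 0.34 in DD eyes (adjusted p = 0.0903) and 0.41 in LD brains (adjusted p = 0.06202). The LD brain call was also lost fitting only the groups compared, with voom weights and with brain DD PFNA replicate 3 (highest adjusted p = 0.384).

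**Figure D3:**
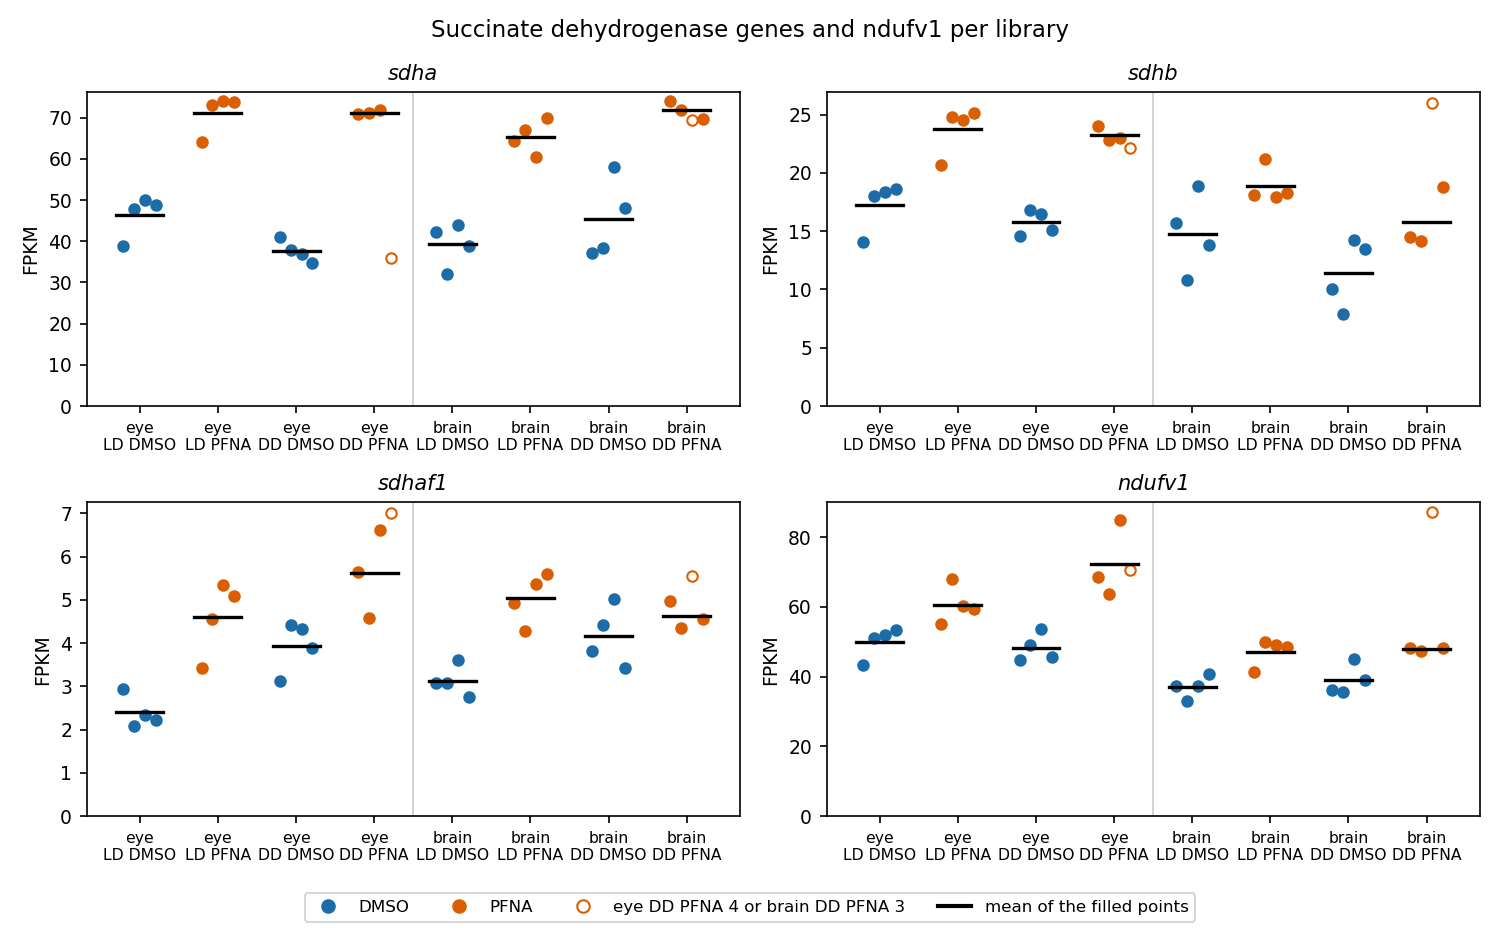
FPKM of sdha, sdhb, sdhaf1 and ndufv1 in every library of the 8 groups, with bars at the mean of the filled points; open circles are eye DD PFNA replicate 4 and brain DD PFNA replicate 3. For sdha the PFNA libraries sit at 60.43 to 74.14 FPKM and the DMSO libraries at 32.11 to 57.97 FPKM, apart from eye DD PFNA replicate 4 at 36.03 FPKM.

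Few other nuclear members were called with PFNA when all libraries were fitted as deposited. In LD eyes the calls were sdha, sdhb and sdhaf1, 3 of 82 higher and 0 lower, beside 10.7% of all genes called (7.05% higher, 3.7% lower), and limma at an unadjusted p under 0.05 gave 6 lower members where voom weights called 3 lower. Without eye DD PFNA replicate 4, which is in neither LD group, 7 were lower, beside 1206 of all 18044 genes. Rescaled to non-mt- genes with all libraries, 2 were lower, beside 508 of all genes, among them ndufs5 (-0.53, adjusted p = 0.02135, limma). In DD eyes 5 of 82 were higher and 0 lower, beside 10.9% of all genes (6.54% higher, 4.36% lower), with 0 lower at an unadjusted p under 0.05 in limma and 0 by voom. These added atp5mc1, up by 0.60 (adjusted p = 0.02869), and uqcrfs1, the Rieske iron-sulfur subunit of complex III, up by 0.47 (adjusted p = 0.03811). For uqcrfs1 the DD DMSO eyes had 25.64, 28.08, 27.43 and 26.12 FPKM and the DD PFNA eyes 34.04, 32.72, 35.52 and, in replicate 4, 50.61 FPKM; its call was lost without replicate 4. Rescaled to non-mt- genes, the median of all genes in DD eyes moved from -0.02 to -0.19, calls over all genes from 60.0% to 27.6% higher, and the mt- median from 0.13 to -0.08. All 5 higher calls were then lost, and mt-nd5 was called lower (-0.47, adjusted p = 0.005528).

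In LD brains 3 of 82 nuclear members were higher and 0 lower beside 7.9% of all genes (5.62% higher), and 3 had an unadjusted p under 0.05 on the lower side in limma and 0 by voom. In DD brains sdha was the single call among 95 members, beside 6.62% of all genes (4.82% higher, 1.8% lower). The nuclear median was 0.07 in LD brains and -0.05 in DD brains.

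In LD brains with PFNA 3 of 13 mt- genes were called lower and 0 higher, all complex I subunits of the membrane arm, where 2.28% of all genes were lower. For mt-nd4 (MT 11299 to 12679) the LD DMSO brains had 516.11, 455.17, 515.21 and 491.52 FPKM and the LD PFNA brains 400.23, 367.94, 368.16 and 361.05 FPKM, without overlap and with a fall of 0.40 (SE 0.0913, adjusted p = 0.01542). Its neighbour mt-nd4l, which shares a few bases with it, fell by 0.40 (adjusted p = 0.01542, limma). As the genes overlap, these calls may not be independent of each other. For mt-nd5 the values were 332.34, 322.43, 318.83 and 332.69 FPKM with DMSO and 267.32, 257.11, 267.27 and 253.74 FPKM with PFNA, a fall of 0.32 (SE 0.0826, adjusted p = 0.02882) between groups that were tight and far apart. With single libraries left out in turn mt-nd4l was called in 8 of 8 fits, mt-nd4 in 7 (highest adjusted p = 0.0512) and mt-nd5 in 2 (0.0828). Rescaled to non-mt- genes, calls over all genes went from 71.2% to 81.9% higher and the mt- median from -0.24 to -0.16. All 3 mt- calls were lost there (adjusted p = 0.1936 for mt-nd4, 0.1336 for mt-nd4l and 0.2393 for mt-nd5), and 0 mt- genes were called with brain DD PFNA replicate 3 in the fit. In this contrast the muscle markers summed to 115.2 to 755.8 FPKM with DMSO and 55.1 to 176.7 FPKM with PFNA, with 2 of 17 tested lower, and their part was not tested.

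In DD brains 13 of 13 mt- genes had a negative difference, with a median of -0.15, and 0 were called, with 3 at an unadjusted p under 0.05 in limma and 2 called lower by voom weights. For mt-nd5 the DD DMSO brains had 397.76, 330.51, 305.47 and 366.5 FPKM and the DD PFNA brains 299.75, 275.42 and 294.91 FPKM, apart but close, at -0.26 (SE 0.0892, adjusted p = 0.0969). The 11 of 11 pancreas and gut markers that were higher in DD DMSO brains than in LD ones were lower with PFNA in 9 of 11 cases, from 70.8 to 525.6 FPKM down to 18.0 to 36.0 FPKM, and their part was not tested.

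In LD eyes 12 of 13 mt- genes had a negative difference, with a median of -0.20. None was called with all libraries, where limma gave 1 at an unadjusted p under 0.05 and voom 1. For mt-nd5 the LD DMSO eyes had 368.24, 358.59, 369.46 and 349.2 FPKM and the LD PFNA eyes 294.8, 309.44, 337.32 and 292.09 FPKM, with no overlap. Fitted without eye DD PFNA replicate 4, the same -0.23 passed (SE 0.074, adjusted p = 0.04441), as did mt-nd6 at -0.27 (adjusted p = 0.0342) and mt-atp6 at -0.27 (adjusted p = 0.04917), beside 17.7% of all genes (6.68% lower). In that fit 7 nuclear members were lower too, among them ndufs5 by 0.54 (adjusted p = 0.002397), ndufs8a by 0.38 (adjusted p = 0.02102) and ndufs3 by 0.30 (adjusted p = 0.03371). Photoreceptor markers summed to 17039.7 to 21627.0 FPKM in LD DMSO eyes and 10906.9 to 13958.2 FPKM in LD PFNA eyes, with 7 of 19 tested lower and 1 higher. Retinal pigment epithelium markers summed to 482.8 to 652.7 FPKM and 689.5 to 905.0 FPKM, with 3 of 10 higher. The part of either was not tested.

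In DD eyes the mt- genes depended on replicate 4. With it 11 of 13 differences were positive and none was called, with 1 at an unadjusted p under 0.05 in limma and 1 by voom, both lower. Without it mt-nd5 fell by 0.29 (SE 0.0799, adjusted p = 0.02475), from 330.59, 301.9, 380.29 and 345.06 FPKM to 259.07, 285.3 and 284.37 FPKM, beside 14.1% of all genes called (8.57% higher, 5.51% lower). The groups did not overlap, and replicate 4 itself was at 306.45 FPKM for mt-nd5, inside the DMSO range, while its mt-cyb was the highest of the eye libraries. Of 19 photoreceptor markers tested, 6 were lower in this contrast, and their part was not tested.

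**Figure D4:**
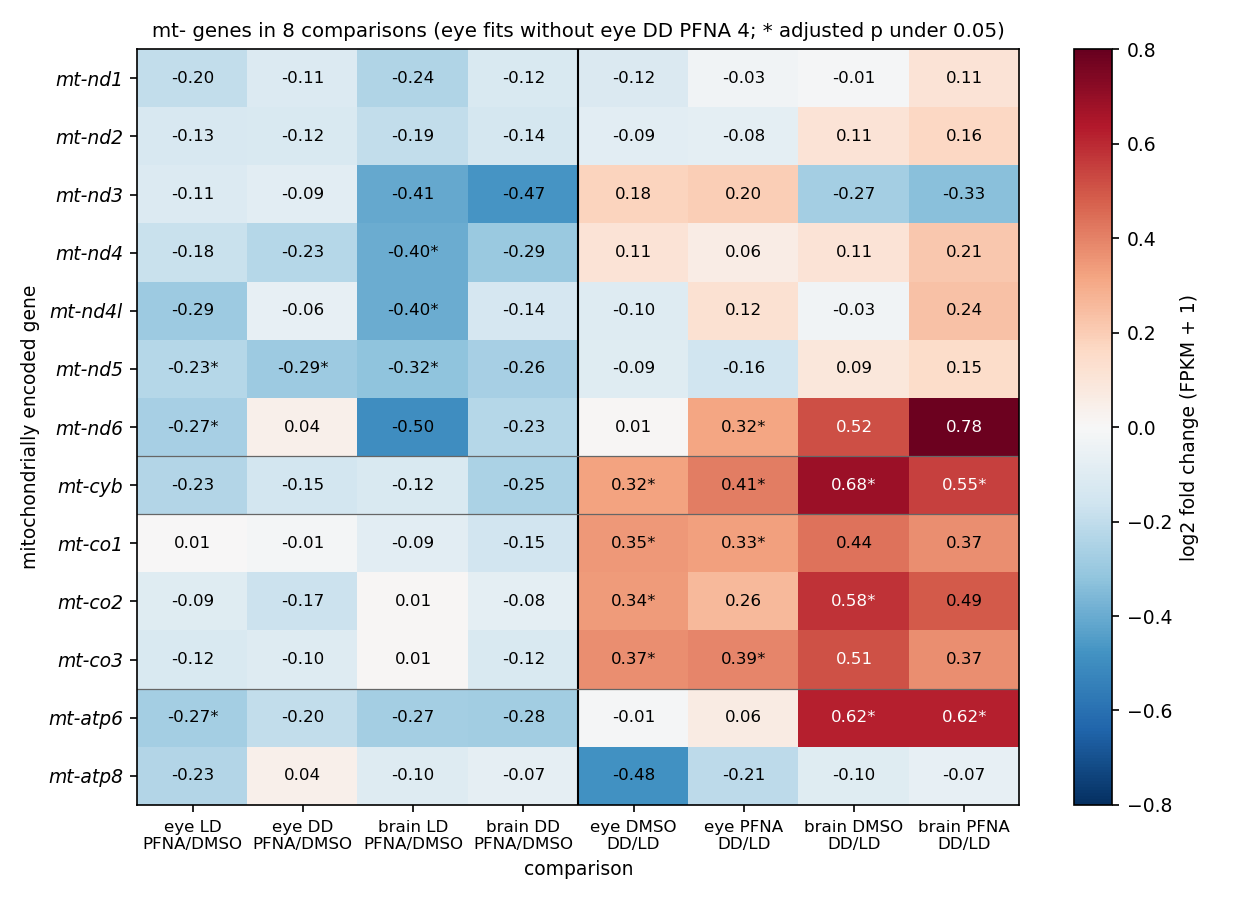
Difference of each of the 13 mt- genes in the 4 comparisons of PFNA with DMSO and the 4 of DD with LD, on the log2(FPKM + 1) scale, with an asterisk where the adjusted p was under 0.05; the eye columns are fitted without replicate 4 of the DD PFNA group. The PFNA columns are mostly negative, with mt-nd5 at -0.23 and -0.29 in eyes and -0.32 and -0.26 in brains, and in the dark columns mt-cyb rises by 0.32 to 0.68.

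No member passed a test for a PFNA difference that depended on photoperiod. In eyes limma called 0 of 13 mt- genes and 0 of 82 nuclear members, beside 0.137% of all genes (0.0549% higher, 0.0824% lower), with 0 and 25 at an unadjusted p under 0.05, all of the 25 positive, and 0 by voom. These counts include eye DD PFNA replicate 4, with a median difference of 0.42 for nuclear members and 0.29 for mt- genes. Without it the medians were 0.25 and 0.02, and 0 members were called beside 25 genes higher and 32 lower of 18044. In brains limma called 0 of 95 beside 0.00581% of all genes, with 0 mt- genes and 3 nuclear members at an unadjusted p under 0.05 and 0 by voom. The tests of eye against brain called 0 members for the dark difference in DMSO (0.633% of all genes), for PFNA in LD (0.189%) and for PFNA in DD (1.04%), with 1, 0 and 1 mt- genes and 12, 6 and 8 nuclear members at an unadjusted p under 0.05 and 0 by voom. The lists of called members therefore differ between tissues without the difference itself having passed. Without eye DD PFNA replicate 4 the test of the dark difference called 4 members, beside 131 genes higher and 141 lower of all 19496 tested. They were mt-atp6, at -0.64 in eye relative to brain (adjusted p = 0.02643), and ndufb11, cox4i2 and atp5pd at 1.59, 0.69 and 0.53. The last of these, a stalk subunit of complex V, was named after its value was seen.

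Some minor paralogues of nuclear subunits differed between eyes and brains. In LD DMSO 13 of 85 nuclear members were higher in eyes and 8 lower, and of the mt- genes mt-atp6 was higher and mt-nd3 lower, beside 47.4% of all genes called. For complex IV, cox4i1, the common form of subunit 4, stood at 221.21, 218.43, 194.96 and 200.85 FPKM in eyes and 217.62, 241.96, 185.49 and 238.51 FPKM in brains, with overlapping groups. The alternative form cox4i2, given for the eyes above, had 12.34, 11.4, 14.65 and 15.58 FPKM in LD DMSO brains and was higher in eyes by 1.85 (SE 0.151, adjusted p = 2.333e-11). The paralogue cox6b1, of the subunit on the outer face of complex IV, went the other way, with 4.8, 6.34, 6.43 and 4.36 FPKM in eyes and 40.66, 25.67, 35.51 and 29.76 FPKM in brains, a difference of -2.38 (adjusted p = 3.353e-07). Its partner cox6b2, named here after its values were seen, had 73.64 to 84.3 FPKM in eyes and 51.27 to 89.4 FPKM in brains. Near-identical stretches could share reads between paralogues.

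The ndufa4 family differed member by member. In LD DMSO ndufa4l was at 23.94, 22.05, 21.83 and 20.75 FPKM in eyes and 15.11, 10.83, 14.76 and 10.51 FPKM in brains, higher in eyes by 0.76. The low-level ndufa4l2a was at 0.15, 0.16, 0.15 and 0.79 FPKM in eyes and 1.59, 1.5, 1.28 and 2.58 FPKM in brains, lower in eyes by 1.07 on the log2(FPKM + 1) scale. Its paralogue ndufa4l2b had 5.75, 3.12, 3.12 and 6.76 FPKM in eyes and was listed at 0 in all 4 LD DMSO brain libraries. For ndufa4 itself, named after its values were seen, the eyes had 2.35, 3.5, 1.91 and 3.87 FPKM and the brains 8.49, 9.9, 11.51 and 10.28 FPKM, lower in eyes by 1.52 (adjusted p = 0.001079). Thus ndufa4l and ndufa4l2b were higher in eyes, and ndufa4 and ndufa4l2a in brains. The complex I gene ndufv1 was higher in eyes by 0.42. Tissue markers moved with this contrast by design, with 19 of 19 photoreceptor and 16 of 16 lens markers tested higher in eyes and 16 of 20 brain markers lower.

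**Figure D5:**
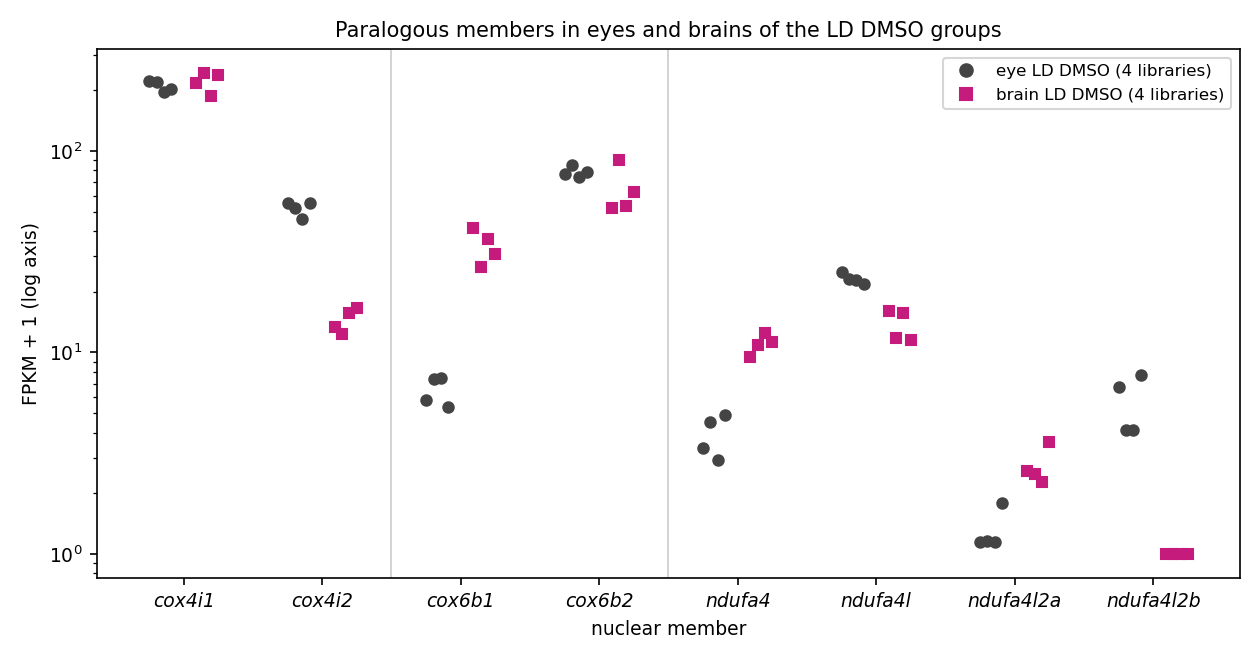
FPKM + 1 on a log axis of cox4i1 and cox4i2, cox6b1 and cox6b2, and the ndufa4 genes in the 4 LD DMSO eye and 4 LD DMSO brain libraries, 1 point per library. The cox4i2 points lie at 44.88 to 54.3 FPKM in eyes and 11.4 to 15.58 FPKM in brains, cox6b1 is reversed, and cox4i1 and cox6b2 overlap.

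Around the chain, some genes of the tricarboxylic acid cycle list were lower in dark DMSO tissue. In DMSO brains 9 of 20 of its genes tested were lower and 0 higher, and in DMSO eyes 5 of 21 were lower and 0 higher, beside 9.68% and 6.34% of all genes lower. In PFNA eyes 3 of 21 were higher and 2 lower, with a median of -0.12, beside 7.04% and 9.05% of all genes. Among those with the smallest p, sucla2, a subunit of succinyl-CoA ligase, fell by 0.38 in brains and 0.45 in eyes. In PFNA brains 3 of 20 were lower, beside 5.97% of all genes, among them pdhx of the pyruvate dehydrogenase complex by 0.68. With PFNA 0 of 20 were called in either brain comparison. Among assembly factors for the complexes, 4 of 38 were higher with PFNA in LD brains, including ttc19 by 0.46, and 3 of 38 in DD eyes, including acad9 by 0.98, beside 5.62% and 6.54% of all genes higher. Of the genes that express mitochondrial DNA, 2 of 22 were called in LD brains, tfb2m up by 0.39 and fastkd3 down by 0.68, a share near the 7.9% of all genes. The mitochondrial ribosome list had 5 of 65 lower in LD eyes with PFNA, beside 3.7% of all genes, and 12 of 65 higher and 1 lower with dark in PFNA eyes, beside 7.04% and 9.05%.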

How the data were processed

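RNA from eyes and brains of 32 zebrafish samples was sequenced and the authors deposited 1 table of FPKM values per gene and library, with gene names, types, lengths and coordinates. Reads were aligned with HISAT2 2.0.5 and counted with featureCounts 1.5.0-p3, per the submitters' processing notes; the genome build and strand setting are given by no source used here. The 2 columns of group means were not used. Each value multiplied by gene length gave whole fragments within 0.05 for 100.0% of values, from which library totals of 8.83 M to 16.13 M fragments were read. These totals set the counting precision of low genes only.

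Members were found by gene name and type. The members, the lists of other genes and the tests were chosen with earlier results of these data known. The design text of the series names another compound; the sample labels, which name PFNA, were followed. A gene was tested when 4 or more libraries of the fit had 1 FPKM or more, and the test was run on log2(FPKM + 1) with limma 3.58.1 (R 4.3.3, lmFit and eBayes with a trend), which understates changes of low genes. The 4 eye groups were fitted together (16 libraries, 18204 genes), the 4 brain groups together (15 libraries, 17216 genes), and all 31 for comparisons between tissues (19576 genes). A gene was called at a Benjamini-Hochberg adjusted p under 0.05 over all genes tested, with the comparisons two-sided. The fit was checked on simulated data with known changes.

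Named are all mt- genes, the 6 called nuclear members with the smallest p in each comparison, a fixed set of key subunits, and the 3 called genes with the smallest p from each other list. Genes outside this rule are marked where they appear. Alternatives were another pseudocount, no filter, median-ratio scaling, scaling to genes without the mt- prefix, a replicate block, fits of only the groups compared, voom weights on the recovered fragments, and leaving out each library. A few genes picked by this rule are not reported here.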

Additional observations from a re-analysis of the deposited data

Results flagged for a closer look

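Of 217 group values checked for a library far from the other libraries of its group by Dixon's test, 24 were flagged, where chance flags about 1 in 20 groups. Of these, 9 were in eye DD PFNA replicate 4. They were the mitochondrial sum at 33944 FPKM, the nuclear sum at 6414.9 FPKM, sdha at 36.03 FPKM, ndufa4l at 43.63 FPKM, atp5fa1 at 143.98 FPKM, mt-cyb at 2123.13 FPKM, mt-co1 at 8022.33 FPKM, mt-co3 at 7052.09 FPKM and mt-atp6 at 4313.38 FPKM. Within that library sdha and atp5fa1 were the lowest of their group and the others the highest.

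In eye LD DMSO, replicate 1 was low for sdhb (14.09 FPKM), atp5f1b (363.32 FPKM) and atp5fa1 (277.4 FPKM) and high for sdhda (1.77 FPKM), and replicate 4 was high for ndufa4l2a (0.79 FPKM). In eye LD PFNA, replicate 1 was low for the nuclear sum (3290.7 FPKM), sdha (64.07 FPKM) and sdhb (20.7 FPKM) and high for mt-co2 (1888.11 FPKM). In eye DD DMSO, replicate 1 was low for the nuclear sum (3199.7 FPKM), and in eye DD PFNA, replicate 1 was high for uqcrc2a (30.23 FPKM). In brain LD PFNA, replicate 1 was low for ndufv1 (41.28 FPKM) and ndufb11 (6.1 FPKM), replicate 2 was high for sdhb (21.2 FPKM) and replicate 3 was high for uqcrc2a (27.81 FPKM). The photoreceptor markers of brain DD PFNA replicate 3, a library that enters no comparison, summed to 9743.37 FPKM.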

How the results depend on the processing

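No gene changed sign between settings where it was called in either. Scaled to non-mt- genes, medians turned sign for mt- genes with PFNA in DD eyes (0.13 to -0.08) and nuclear members with dark in DMSO eyes (-0.05 to 0.04) and DMSO brains (-0.19 to 0.02). Without eye DD PFNA replicate 4 the DD eye mt- median was -0.11. Of 5810 values of single genes under alternatives, 5317 stayed on their side of the threshold, 350 lost it and 143 gained it. The number of members called moved as follows, and the cause was not tested. For PFNA in LD eyes (3 called) it was 14 fitting only the groups compared, 6 with voom weights, 13 without eye DD PFNA replicate 4 and 2 to 13 leaving out single libraries. For PFNA in DD eyes (5) it was 1 scaled to non-mt- genes, 2 fitting only the groups compared and 3 to 7 leaving out libraries, with 3 without any of the 4 DD DMSO libraries. For dark in DMSO eyes (4) it was 2 with no filter, 8 scaled to non-mt- genes, 21 fitting only the groups compared, 17 without eye DD PFNA replicate 4 and 1 to 17 leaving out libraries, with 1 without LD DMSO replicate 2 or 3 or DD DMSO replicate 3. For dark in PFNA eyes (15) it was 0 fitting only the groups compared and 4 to 22 leaving out libraries, with 4, 5 and 4 without LD PFNA replicates 1, 2 and 4. For PFNA in LD brains (6) it was 2 scaled to non-mt- genes, 2 with brain DD PFNA replicate 3 and 3 to 5 leaving out libraries, 3 without LD PFNA replicate 4. For PFNA in DD brains (1) it was 2 with the replicate block, 0 fitting only the groups compared, 3 with voom weights and 1 to 6 leaving out libraries, 6 without DD DMSO replicate 3. For dark in DMSO brains (26) it was 17 scaled to non-mt- genes, 11 fitting only the groups compared, 11 with brain DD PFNA replicate 3 and 19 to 29 leaving out libraries. For dark in PFNA brains (18) it was 11 with no filter, 10 scaled to non-mt- genes, 37 fitting only the groups compared, 10 with brain DD PFNA replicate 3 and 6 to 17 leaving out libraries, with 10, 6 and 8 without LD PFNA replicate 2 and DD PFNA replicates 1 and 2. For eye against brain (23) it was 22 to 33 leaving out libraries. The brain photoperiod test (0) gave 1 without DD DMSO replicate 4. The test of the dark difference between tissues (0) gave 1 without eye DD DMSO replicate 4, 1 without brain LD DMSO replicate 2 and 4 without eye DD PFNA replicate 4. Calls over all genes in PFNA eyes fell from 2928 to 354 fitting only the groups compared. Elsewhere they moved too. Without eye DD PFNA replicate 4 they went from 1283 higher and 673 lower to 1992 and 1206 for PFNA in LD eyes. For dark in DMSO eyes they went from 1133 and 1155 to 1812 and 2181. With brain DD PFNA replicate 3 they went from 1100 and 1666 to 456 and 629 for dark in DMSO brains. In PFNA brains the dark calls went from 630 and 1028 to 474 and 801.

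With a pseudocount of 0.1 the mean log2 gap between mt- and nuclear members was 6.05, 6.0014, 6.07 and 5.94 in eyes (LD DMSO, LD PFNA, DD DMSO, DD PFNA) and 5.99, 5.65, 6.35 and 6.21 in brains, against 5.57, 5.49, 5.61 and 5.50, and 5.50, 5.19, 5.89 and 5.73. Within each tissue, of 45 pairs of libraries with the same replicate number, 9 correlated above 0.1, over a range from -0.296 to 0.271. Pairs with different numbers were not taken as a reference, so this does not settle whether the numbers pair samples. Eye and brain libraries of the same number were not compared, and the tests between tissues treat them as unpaired. With the replicate block the members called were 4, 5, 5 and 14 in the eye comparisons in the order above and 7, 2, 25 and 14 in the brain ones. Over all genes the block gave 1240, 1158, 1097 and 1236 higher and 601, 767, 1146 and 1684 lower in eyes. In brains it gave 823, 688, 961 and 407 higher and 309, 268, 1529 and 810 lower.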

Other observations

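In the list of cytochrome c, inner membrane carriers and coenzyme Q genes, 12 of 27 tested were higher and 1 lower in DD eyes, 4 higher and 2 lower in LD eyes, 3 of 25 higher in LD brains and 6 of 25 higher in DD brains. Over all genes 6.54%, 7.05%, 5.62% and 4.82% were higher in these comparisons. The eye values of these PFNA comparisons, here and below, are given only with eye DD PFNA replicate 4 in the fit. The respiratory supercomplex factor higd1a rose in all 4 comparisons, from 14.5 to 40.3 FPKM in LD eyes (log2 difference 1.43, adjusted p = 0.0006416, limma), 9.47 to 40.7 FPKM in DD eyes (1.93), 9.72 to 19.6 FPKM in LD brains (1.02) and 5.95 to 17.3 FPKM in DD brains (1.40). The carrier ucp2 rose by 1.08, 0.87, 0.87 and 1.01 in the same order.

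Among regulators of mitochondrial biogenesis the nuclear receptor esrra rose with PFNA by 0.47 in LD eyes (adjusted p = 0.006222), 0.64 in DD eyes, 0.72 in LD brains and 0.92 in DD brains. The coactivator ppargc1a rose by 0.66 in DD eyes (adjusted p = 0.01126), and its difference in LD brains was -0.0014 (adjusted p = 0.9962). Of the mitochondrial chaperones and proteases, 7 of 17 were higher in DD eyes and 5 of 17 in DD brains, beside 6.54% and 4.82% of all genes. The chaperonin hspd1 rose from 16.985 to 33.8 FPKM in DD eyes and from 15.9 to 38.3 FPKM in DD brains, by 0.95 and 1.21. In the light cycle it rose by 0.39 in LD brains (adjusted p = 0.03171) and stood at 0.39 in LD eyes (adjusted p = 0.07694). Dark alone lowered hspd1 in DMSO, by 0.85 in eyes and 0.69 in brains.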
